A study of Homo sapiens with 15 samples.

Results

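The genes described here are secreted antagonists of Wnt signalling and target genes or nuclear effectors of the pathway, measured in a doxorubicin-sensitive breast cancer cell line and its resistant derivative. The antagonists were FRZB, SOST, DKK1, DKK3, SFRP1 and WIF1, and the targets and effectors were AXIN2, LEF1 and TCF7. A probe set, the group of array probes that reports a transcript, was taken when the platform annotation gave it a member as its only gene symbol. This gave 24 probe sets for 8 of the 9 genes, among 19775 genes tested in all. TCF7 was not analysed here. FRZB and SOST were chosen because their measured values differed between the lines, so their values are described without a test. The other 6 genes were chosen for their place in the pathway, with earlier results of these data known, and were tested.

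CAL51 is a triple-negative breast cancer cell line. CALDOX was derived from it by long culture in 0.4 µM doxorubicin, an anthracycline that poisons topoisomerase II and breaks DNA. There were 5 groups of 3 independent cultures, with 1 array each. Of CAL51 there was an untreated group, a group exposed to 0.4 µM drug for 24 h and another for 48 h. Of CALDOX there was an untreated group and a group given 4 µM drug for 24 h after 3 drug-free passages. CALDOX is a single derived line, so differences from CAL51 describe that line. The labels do not say whether the untreated CALDOX cultures were free of drug when RNA was taken. The drug doses of the lines differ, so the 24 h responses are given side by side and their difference is a difference between these treatments.

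Wnt proteins are secreted with the help of the carrier WLS and bind Frizzled receptors together with the co-receptors LRP5 and LRP6. In the canonical branch this stabilises beta-catenin, which joins TCF and LEF factors on DNA and activates targets such as AXIN2, itself a brake on the pathway. FRZB and SFRP1 carry a Frizzled-like domain and WIF1 a WIF domain, and all of them bind Wnt proteins outside the cell. DKK1 and SOST bind the LRP co-receptors instead. SOST, also called sclerostin, is best known as a product of osteocytes that restrains bone formation, and FRZB was first studied in cartilage and in embryos.

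FRZB and SOST lie on chromosomes 2 and 17, and both are transcribed from the minus strand. Because the signals of both genes were far lower in CALDOX, the 250 bases before each start site are shown, on the gene's strand and 5′ to 3′, from RefSeq for the build GRCh38.p14. The windows are chr2:182866638-182866887 for FRZB and chr17:43758792-43759041 for SOST. Capitals mark matches to the GC box GGGCGG.
FRZB: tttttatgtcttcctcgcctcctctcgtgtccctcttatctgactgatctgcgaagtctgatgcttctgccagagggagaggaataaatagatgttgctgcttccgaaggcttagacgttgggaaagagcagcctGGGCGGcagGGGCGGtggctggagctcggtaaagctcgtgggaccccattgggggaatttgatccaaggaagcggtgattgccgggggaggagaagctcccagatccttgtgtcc
SOST: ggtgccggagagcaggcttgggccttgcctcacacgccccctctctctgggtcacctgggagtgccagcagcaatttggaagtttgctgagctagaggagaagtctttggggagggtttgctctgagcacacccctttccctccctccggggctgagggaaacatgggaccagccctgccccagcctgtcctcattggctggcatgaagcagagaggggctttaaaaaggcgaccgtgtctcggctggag

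The FRZB window holds 11 CpG dinucleotides with a GC content of 55.6%, and the SOST window holds 6 CpG with a GC content of 61.2%. Over the 35116 windows of this length in the table the medians were 11 CpG and 58.0%. Of all windows, 49.7% hold fewer CpG than that of FRZB and 38.1% fewer than that of SOST. The GC box, searched on both strands, matched the FRZB window at 115 and 106 bases before the start and did not match the SOST window. It was found in 42.6% of all windows. The TCF/LEF core CTTTGA, present in 11.2% of windows, and the TATA box TATAAA, present in 10.7%, matched neither window. These letter matches describe the sequence only.

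FRZB transcript signal was high in CAL51 and far lower in CALDOX. On its brightest probe set, 203697_at, the untreated CAL51 arrays read log2 intensities of 9.51, 9.64 and 9.47. After 24 h of drug they read 9.08, 9.13 and 9.13, and after 48 h 9.08, 9.18 and 9.22. Every treated CAL51 array was below every untreated one, while the 24 h and 48 h arrays overlapped. The untreated CALDOX arrays read 6.12, 5.54 and 5.41, and those treated for 24 h read 5.85, 5.53 and 5.44. All 6 CALDOX arrays were far below all 9 CAL51 arrays, and treated and untreated CALDOX overlapped. In these bulk cultures, fewer cells that express a gene and less RNA per cell cannot be told apart.

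The mean FRZB difference of untreated CALDOX from untreated CAL51 was -3.85 ± 0.14 on the log2 scale (± is the limma standard error, n = 3 arrays per group), a 14.4-fold lower signal. This was the tenth lowest difference in rank (10 of 19775 genes). In CAL51 the log2 difference from untreated cells was -0.43 ± 0.14 at 24 h and -0.38 ± 0.14 at 48 h. In CALDOX the treated minus untreated difference was -0.08 ± 0.14, and the responses of the lines differed by 0.34 ± 0.20. The first untreated CALDOX replicate, at 6.12, stood above the other two. Without it the log2 difference between the lines was -4.07, the CALDOX treated minus untreated difference 0.13 and the difference of responses 0.56.

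FRZB had 4 probe sets, and they did not all show the same size of difference. The probe set 203698_s_at read 9.41 to 9.47 in untreated CAL51 and 5.42 to 5.82 in untreated CALDOX, a log2 difference of -3.80 ± 0.09 or 13.9-fold. Its 24 h and 48 h differences in CAL51 were -0.23 ± 0.09 and -0.26 ± 0.09, with no overlap with the untreated arrays. On 244419_at the group means ran from 6.22 in untreated CAL51 to 5.62 in treated CALDOX, and the lines differed by -0.53 ± 0.12. On 231273_x_at the lines differed by 0.01 ± 0.12 and the groups overlapped in every comparison. Averaged over the 4 probe sets, the difference between the lines was -2.04, and the 24 h and 48 h differences in CAL51 were -0.25 and -0.15.

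SOST was also high in CAL51 and low in CALDOX, but its signal was highest in CAL51 cells treated for 48 h. Its single probe set, 223869_at, read 10.40, 10.26 and 10.30 in untreated CAL51. It read 10.48, 10.37 and 10.60 at 24 h, and 11.46, 11.30 and 11.47 at 48 h. All 48 h arrays were above all other CAL51 arrays, while the 24 h and untreated arrays overlapped. Untreated CALDOX read 5.51, 5.67 and 5.96, and treated CALDOX 5.67, 5.37 and 5.56, so these groups overlapped.

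The SOST log2 difference of untreated CALDOX from untreated CAL51 was -4.61 ± 0.11, a 24.3-fold lower signal and rank 6 from the lowest of 19775 genes. At 48 h in CAL51 it was 1.09 ± 0.11 above untreated cells, which is 2.13-fold, and 0.93 ± 0.11 above the 24 h cells. The 24 h difference was 0.16 ± 0.11. In CALDOX the treated minus untreated difference was -0.18 ± 0.11, and the responses of the lines differed by -0.34 ± 0.15. Over the settings tried, the difference between the lines ran from -4.73 to -4.51 and the 48 h difference from 1.06 to 1.14. The small differences moved more when 1 array was left out. That at 24 h ran from 0.10, without the third 24 h replicate, to 0.22. The CALDOX one ran from -0.28, without the first untreated replicate, to -0.06, without the third. The difference of responses ran from -0.45 to -0.22 for the same arrays.

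**Figure D1:**
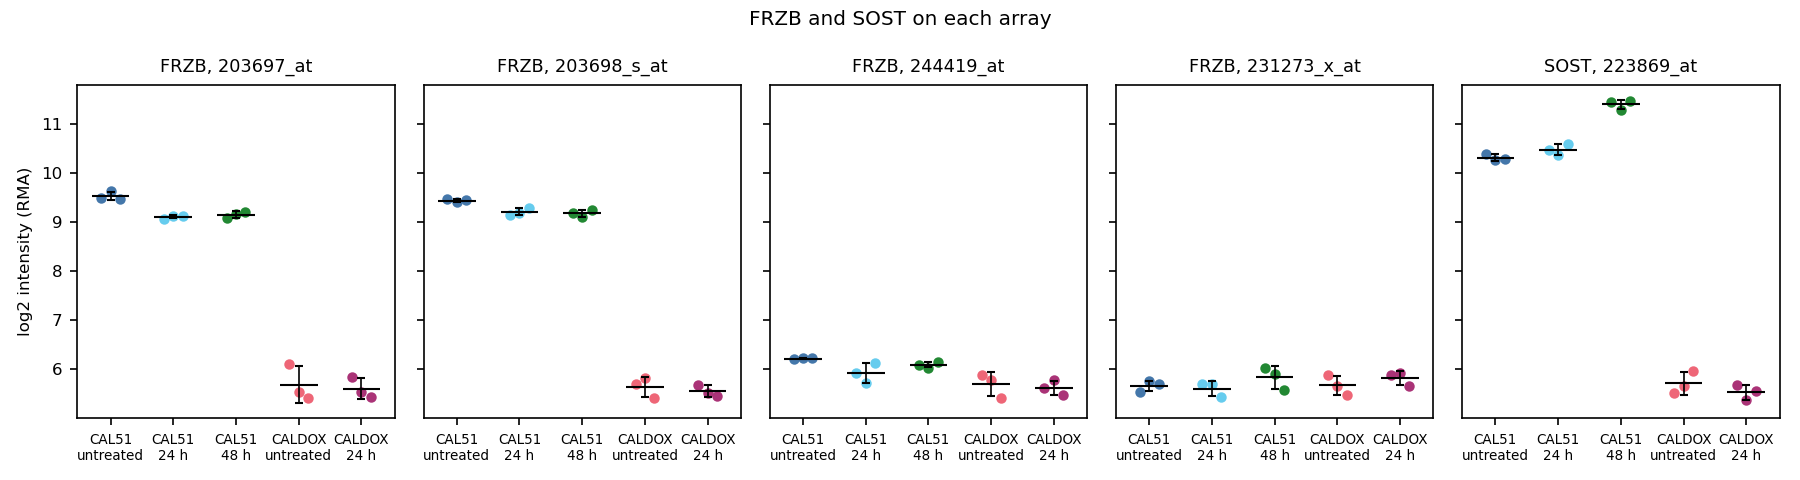
Log2 intensity (RMA, vertical axis) of the 4 FRZB probe sets and the SOST probe set on each of the 15 arrays, by group (horizontal axis). Points are arrays, horizontal lines group means and bars SD (n = 3). FRZB 203697_at and 203698_s_at and SOST 223869_at stand above 9 in every CAL51 array and below 6.2 in every CALDOX array, and SOST is highest at 48 h.

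FRZB and SOST were among the 21 genes, 0.106% of those tested, that were lower in CALDOX by at least 8-fold, a fact that their choice fixes. Between these untreated lines 25.9% of all genes were called changed (limma, Benjamini-Hochberg adjusted p under 0.05 over all genes), and the arrays did not overlap for 36.9%. The table gives no detection calls. The CALDOX values of both genes may therefore lie near background, where an array understates a difference. FRZB and SOST correlated across the 15 arrays with a Pearson r of 0.97, which describes mainly the gap between the lines. Over the 9 CAL51 arrays r was -0.52, as FRZB was highest in untreated cells and SOST at 48 h.

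The genes whose pattern over the 15 arrays was most like that of FRZB also stood apart between the lines. They were PDE3A, a cyclic nucleotide phosphodiesterase (Pearson r = 0.993), CERS6, a ceramide synthase (0.991), SLFN11, which sensitises cells to DNA-damaging drugs (0.99), NTS, the neuropeptide neurotensin (0.989), and HMGA2, a chromatin protein (0.989). The most opposite were GEM (-0.995), NPNT (-0.995) and SGK1 (-0.994), which encode a small GTPase, a matrix protein and a kinase. For SOST the most alike were TMEM178A (0.996), the secreted protease HTRA1 (0.996), the peptide-amidating enzyme PAM (0.995), EMP1 (0.994) and the chromatin remodeller ATRX (0.994). The most opposite were DKFZP586I1420 (-0.993), GALNT14 (-0.989) and WDR72 (-0.988). These were picked from 928 genes whose group means spanned at least 1 on the log2 scale. The arrays share their line and their group, so the correlations are descriptions without a p-value.

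Among the genes most like FRZB, the group means of PDE3A, SLFN11, NTS and HMGA2 showed the FRZB order within CAL51 as well. Those of CERS6 did not. The genes were picked by correlation over these same arrays, which favours a shared order. SLFN11 read 7.40 untreated, 6.95 at 24 h and 7.09 at 48 h, against 4.87 in untreated CALDOX. NTS read 10.55, 9.74 and 10.37 in the CAL51 groups and 5.90 in untreated CALDOX. For SOST, EMP1 read 11.44, 11.60 and 11.94 in untreated, 24 h and 48 h CAL51 and 6.60 in untreated CALDOX. HTRA1 read 9.49, 9.65 and 9.89, against 7.42.

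Genes next to FRZB and SOST on their chromosomes were mostly not called between the lines. Of the 4 nearest tested genes on each side of FRZB, 1 of 8 was called lower and 0 were called higher, against 25.9% called in either direction over all genes. That gene was ITPRID2, at -1.21 ± 0.09 (limma adjusted p = 2.2e-08). The immediate neighbours DNAJC10 and NCKAP1, a co-chaperone and an actin regulator, read 0.05 ± 0.08 (adjusted p = 0.75) and -0.25 ± 0.11 (adjusted p = 0.14). Of the 8 genes around SOST, 1 was called lower and 0 higher. This was ETV4, an ETS transcription factor, at -0.27 ± 0.06 (adjusted p = 0.0026), while the adjacent MEOX1 and DUSP3 read -0.08 ± 0.09 (adjusted p = 0.63) and -0.13 ± 0.07 (adjusted p = 0.25).

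**Figure D2:**
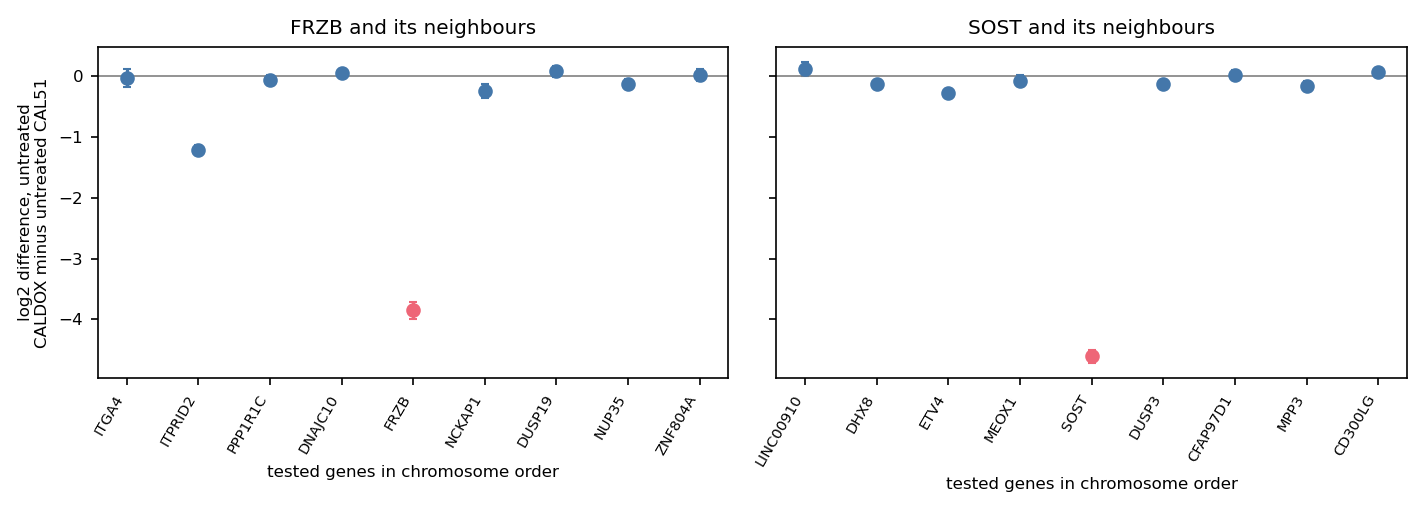
Log2 difference of untreated CALDOX from untreated CAL51 (vertical axis) for FRZB, SOST and the 4 nearest tested genes on each side, in chromosome order with equal spacing (horizontal axis). Points are limma estimates and bars their standard errors. FRZB at -3.85 and SOST at -4.61 stand far below their neighbours, the lowest of which is ITPRID2 at -1.21.

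None of the 6 tested members was called changed in any of the 6 comparisons, 36 tests in all (limma, Benjamini-Hochberg adjusted p under 0.05 over 19775 genes). Between the untreated lines their log2 differences ran from -0.16 to 0.05 with a median of 0.002, beside 0.003 for all genes. Their 95% intervals together ran from -0.35 to 0.21, and 0 of 6 had an unadjusted p under 0.05 or arrays without overlap. Over all genes, 33.9% had such a p, 36.9% had arrays without overlap and 25.9% were called. For a dim probe set the interval holds for its signal and not for the transcript.

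Among the members, no other secreted antagonist passed the test on its brightest probe set. DKK1, which blocks LRP co-receptors, read 6.21, 6.11 and 6.27 in untreated CAL51 and 6.18, 6.19 and 6.26 in untreated CALDOX, a log2 difference of 0.02 ± 0.09 (adjusted p = 0.94). Its lowest group mean was at 48 h in CAL51, where the arrays read 5.93, 6.05 and 5.93, all below the untreated ones. That difference was -0.23 ± 0.09 (adjusted p = 0.087). In treated CALDOX it read 5.85 to 6.29, overlapping untreated CALDOX (-0.17 ± 0.09, adjusted p = 0.32). Without the third treated CALDOX replicate, at 6.29, that difference was -0.29 (adjusted p = 0.033).

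SFRP1 is a secreted Frizzled-related protein, and its probe sets disagreed on the direction at 24 h in CAL51. The brightest, 202036_s_at, read 6.47, 6.48 and 6.47 in untreated CAL51, 6.26, 6.30 and 6.32 at 24 h, and 6.47 on all 3 arrays at 48 h. The 24 h arrays lay below those of both other CAL51 groups without overlap. The log2 differences were -0.18 ± 0.06 at 24 h (adjusted p = 0.057) and 0.18 ± 0.06 from 24 h to 48 h (adjusted p = 0.061). With dim probe sets left out the adjusted p were 0.042 and 0.045, and with a repeated quantile normalization 0.047 and 0.037. The same deposited value was listed on 5 of the 15 arrays. The other 3 SFRP1 probe sets were not called in any comparison and read higher at 24 h than untreated, by 0.11, 0.11 and 0.07. Averaged over the 4 probe sets, the 24 h difference was 0.03 (adjusted p = 0.83) and that from 24 h to 48 h 0.07 (adjusted p = 0.54).

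DKK3, a divergent member of the Dickkopf family, read 6.40 to 6.69 over all arrays on its brightest probe set, with no difference called. The lines differed by 0.05 ± 0.07 (adjusted p = 0.69). Another of its 6 probe sets, 214247_s_at, moved in CAL51. It read 5.26, 5.47 and 5.52 untreated, 5.39, 5.34 and 5.42 at 24 h, and 5.91, 5.92 and 5.66 at 48 h. The 48 h arrays were above all others of the line, by 0.42 ± 0.09 over untreated cells (limma adjusted p = 0.0031 over all probe sets) and 0.45 ± 0.09 over 24 h cells (adjusted p = 0.0048). On that probe set untreated CALDOX, at 5.61 to 5.73, was higher than untreated CAL51 by 0.26 ± 0.09 (adjusted p = 0.044). It was the only 1 of 13 further probe sets of the tested members that passed in any comparison. Of all 54613 probe sets, 8.09% passed at 24 h, 14.5% at 48 h, 6.51% from 24 h to 48 h, 19.1% between the lines, 5.89% in treated CALDOX and 0.884% for the difference of responses. WIF1, at 4.09 to 4.56 over all arrays, showed no group that stood apart, and the lines differed by -0.08 ± 0.12 (adjusted p = 0.71).

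The target and effector genes among the members did not pass either. AXIN2, a direct beta-catenin target, read 7.31, 7.62 and 7.44 in untreated CAL51 and 7.24, 7.22 and 7.44 in untreated CALDOX, a log2 difference of -0.16 ± 0.09 (adjusted p = 0.25). At 48 h in CAL51 it read 7.03, 7.31 and 7.32, overlapping untreated cells, with a difference of -0.23 ± 0.09 (adjusted p = 0.082). Without the first untreated CAL51 replicate this was -0.31 (adjusted p = 0.037), and without the first 48 h replicate -0.14 (adjusted p = 0.35). Over the 4 AXIN2 probe sets it averaged -0.05 (adjusted p = 0.54). The value 7.32 was listed identically on 3 arrays.

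LEF1, a DNA-binding partner of beta-catenin, did not pass the test. Its brightest probe set, 221557_s_at, had its lowest group mean at 24 h in CAL51. It read 7.81, 7.77 and 8.07 untreated, 7.55, 7.64 and 7.64 at 24 h, and 8.07, 7.90 and 7.71 at 48 h. The 24 h arrays lay below all arrays of both other CAL51 groups. The log2 differences were -0.27 ± 0.09 at 24 h (adjusted p = 0.085) and 0.28 ± 0.09 from 24 h to 48 h (adjusted p = 0.075). The latter was 0.37 (adjusted p = 0.022) without the third 48 h replicate. The other 2 LEF1 probe sets changed by -0.03 and -0.04 at 24 h. Averaged over the 3 probe sets, the 24 h difference was -0.12 (adjusted p = 0.23) and that from 24 h to 48 h 0.07 (adjusted p = 0.55). Between the untreated lines LEF1 differed by -0.01 ± 0.09 (adjusted p = 0.96).

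**Figure D3:**
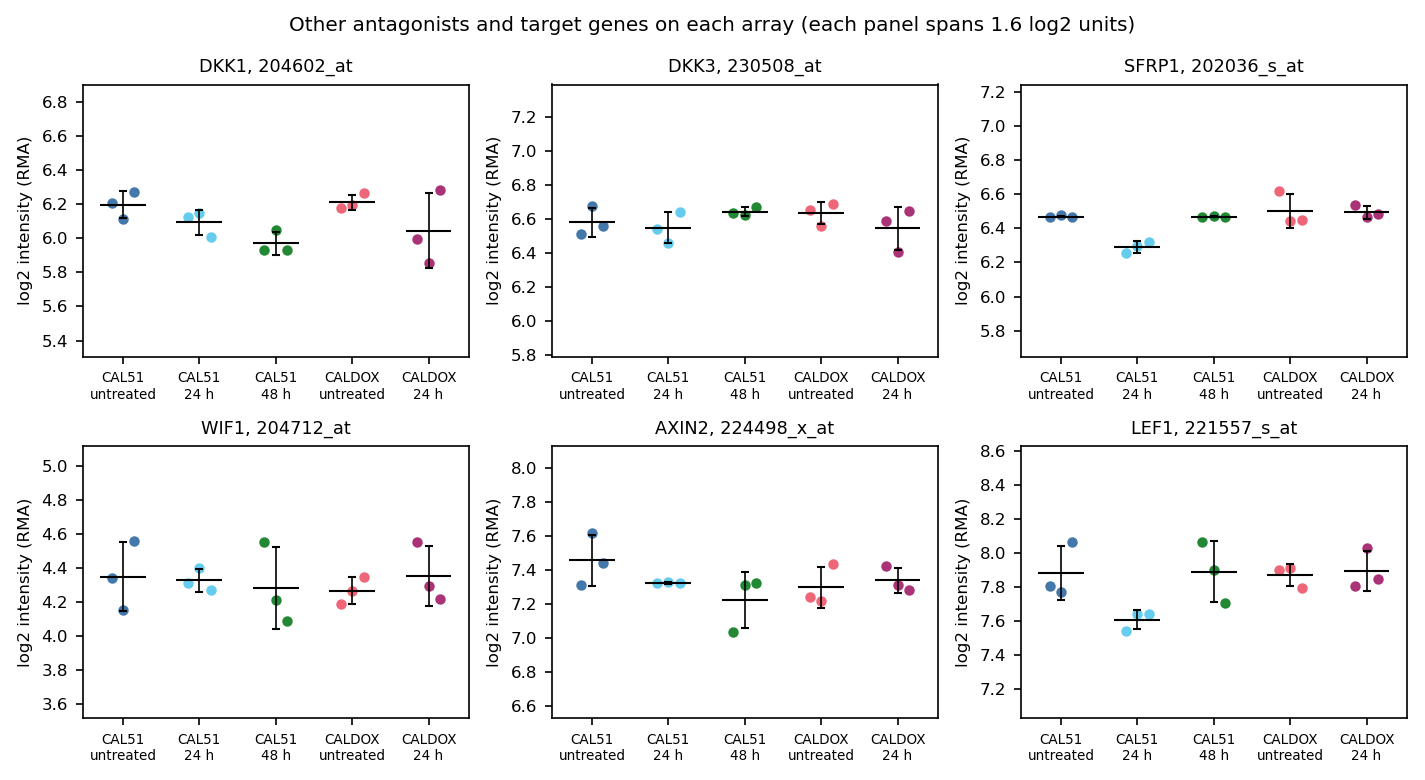
Log2 intensity (RMA, vertical axis) of the brightest probe set of the 6 tested members on each array, by group (horizontal axis). Points are arrays, horizontal lines means and bars SD (n = 3), and each panel spans 1.6 log2 units around its own level. SFRP1 and LEF1 are lowest at 24 h in CAL51 on these probe sets, and in every panel the untreated CAL51 and untreated CALDOX arrays overlap.

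Over the drug comparisons in CAL51 the 6 tested members had medians of -0.12 at 24 h, -0.03 at 48 h and 0.03 from 24 h to 48 h, beside -0.03, -0.02 and 0.01 for all genes. At 24 h all 6 were below 0 on their brightest probe sets, as was the median of all genes. Averaged over each gene's probe sets, SFRP1 was at 0.03 and the others stayed below 0. On the brightest probe sets 2 of 6 had arrays without overlap at 24 h, as did 23.3% of all genes, while 10.1% of all genes were called. At 48 h 1 of 6 did not overlap, beside 33.6% of all genes, and 21.6% of all genes were called. From 24 h to 48 h 2 of 6 did not overlap, beside 23.1%, and 9.71% were called. In treated CALDOX 0 of 6 did so, beside 30.8%, and 10.3% were called. An unadjusted p under 0.05 was found for 2 of 6 members in each CAL51 comparison, beside 22.1% of all genes at 24 h, 31.8% at 48 h and 22.2% from 24 h to 48 h. It was found for 0 of 6 in treated CALDOX, beside 21.0%, and for 2 of 6 (SFRP1 and LEF1) in the difference of responses, beside 11.4%. In that last comparison 1.43% of all genes were called.

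The other genes of the pathway were described through a list of 109 ligands, secretion factors, receptors, antagonists, intracellular components and targets, of which 103 were tested. Between the untreated lines 13 were higher and 15 lower in CALDOX, or 27.2%, near the 25.9% of all genes. The median was -0.01, beside 0.003 for all genes. Only 4 of these genes differed by more than 2-fold.

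Among the ligands, 3 of 17 were higher and 2 lower in CALDOX, or 29.4% beside 25.9% of all genes. WNT5A, which mostly signals outside the beta-catenin branch, read 7.81, 7.58 and 7.57 in untreated CAL51 and 10.61, 10.92 and 10.71 in untreated CALDOX. The lines did not overlap, and the log2 difference was 3.09 ± 0.15 (limma adjusted p = 1.6e-10), or 8.53-fold higher. Its second probe set gave 2.38. WNT7A read 7.31, 7.21 and 7.41 in untreated CAL51 and 7.97 to 8.09 in untreated CALDOX, a difference of 0.71 ± 0.09 (adjusted p = 2.0e-05). WNT9A was higher by 0.61 ± 0.09 (adjusted p = 9.3e-05).

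WLS, the carrier that Wnt proteins need for secretion, was lower in CALDOX. It read 11.83, 11.89 and 11.85 in untreated CAL51 and 10.01, 10.15 and 10.03 in untreated CALDOX. The difference was -1.79 ± 0.06 (limma adjusted p = 3.6e-12), or 3.47-fold, and its other probe sets both gave -1.71. The 4 tested R-spondins were not called.

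Receptors and co-receptors differed in both directions, with 4 of 22 higher and 6 lower, or 45.5% beside 25.9% of all genes. FZD5 read 11.89, 11.60 and 11.79 in untreated CAL51 and 10.29, 10.50 and 10.42 in untreated CALDOX, a log2 difference of -1.36 ± 0.09 (limma adjusted p = 1.1e-08), with -0.46 on its second probe set. FZD6 was also lower, with a difference of -1.04 ± 0.10 (adjusted p = 7.6e-07), and so was FZD2, at -0.62 ± 0.07 (adjusted p = 4.4e-06). ROR1, a receptor for WNT5A, was higher by 0.65 ± 0.08 (adjusted p = 9.7e-06). Its other probe sets gave 0.99 and -0.25. LRP6 differed by 0.005 ± 0.10 (adjusted p = 0.98) on its brightest probe set. Its others were lower in CALDOX, at -0.25 (adjusted p = 0.02 over all probe sets), or not called, at -0.19 (adjusted p = 0.051). The LRP5 probe sets also disagreed, with 0.05 on the brighter and -1.25 (adjusted p = 8.8e-07 over all probe sets) on the other.

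Of 14 other secreted or surface antagonists, 1 was higher and 2 were lower, or 21.4% beside 25.9% of all genes. SOSTDC1, the closest relative of SOST, read 11.91, 11.94 and 11.85 in untreated CAL51 and 10.95, 11.01 and 10.88 in untreated CALDOX. The difference was -0.95 ± 0.07 (limma adjusted p = 2.0e-08). IGFBP4 was lower, at -0.33 ± 0.06 (adjusted p = 6.7e-04) and DKK4 higher by 0.33 ± 0.10 (adjusted p = 0.018). SOSTDC1, LRP5, LRP6 and the other genes named here beyond the largest changes were chosen after their values were seen.

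Inside the cell, 3 of 29 components were higher and 2 lower in CALDOX, or 17.2% beside 25.9% of all genes. TCF7L1, a repressor of the TCF family, read 9.85, 9.81 and 9.90 in untreated CAL51 and 8.79, 9.04 and 8.83 in untreated CALDOX, a difference of -0.96 ± 0.07 (limma adjusted p = 2.2e-08). CTNNB1, which encodes beta-catenin, differed by 0.21 ± 0.11 (adjusted p = 0.2) on its brightest probe set. Another, at 9.15 in untreated CAL51 and 9.60 in untreated CALDOX, was higher by 0.45 ± 0.08 (adjusted p = 2.8e-04 over all probe sets). Of 16 other targets, 2 were higher and 2 lower, or 25%, near the same share of all genes. BMP4 was lower, at -0.72 ± 0.05 (adjusted p = 1.5e-08), NKD2 higher by 0.61 ± 0.10 (adjusted p = 1.5e-04) and MYC higher by 0.32 ± 0.06 (adjusted p = 4.5e-04).

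**Figure D4:**
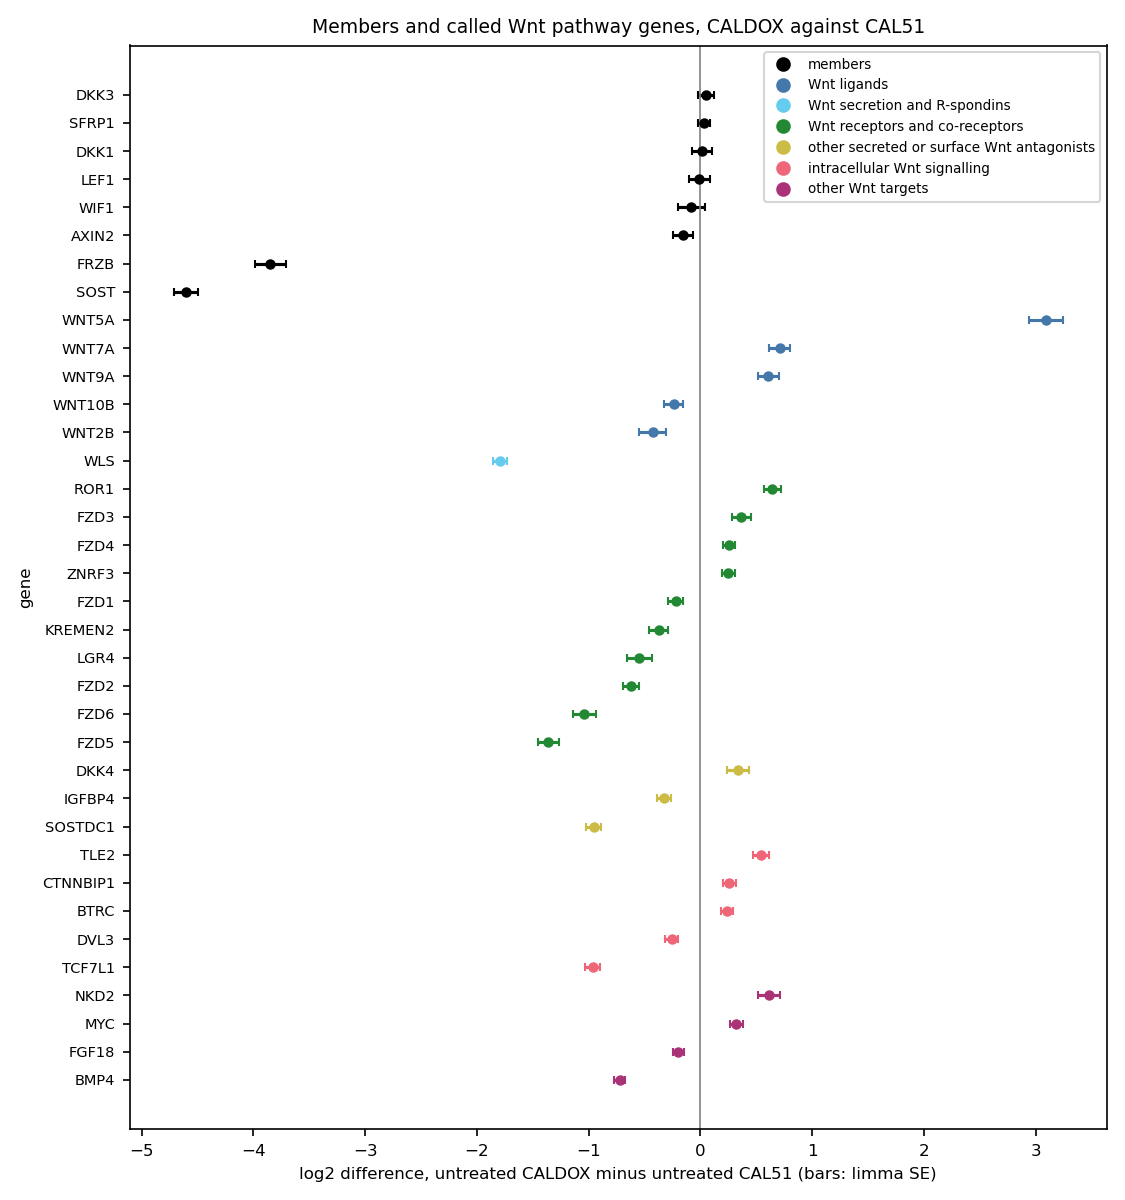
Log2 difference of untreated CALDOX from untreated CAL51 (horizontal axis) for the 8 members with a probe set and the 28 called Wnt pathway list genes (vertical axis), coloured by role. Points are limma estimates and bars standard errors. SOST and FRZB lie at -4.61 and -3.85, the other members lie within 0.16 of 0, and WNT5A is highest at 3.09.

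In CAL51 after 24 h of drug, 4 of the 103 pathway list genes rose and 7 fell, or 10.7% beside 10.1% of all genes. TLE4, a Groucho co-repressor, rose by 0.45 ± 0.10 (limma adjusted p = 0.0064), ROR1 by 0.43 ± 0.08 (adjusted p = 0.0023) and BMP4 by 0.27 ± 0.05 (adjusted p = 0.0028). FZD2 changed by -0.40 ± 0.07 (adjusted p = 0.0015) and FZD1 by -0.30 ± 0.07 (adjusted p = 0.0094). Averaged over each gene's probe sets, TLE4 gave 0.24, FZD2 -0.24 and FZD1 -0.19, all still called. FZD1 missed the threshold without the first untreated replicate (adjusted p = 0.0504). BCL9, a beta-catenin co-activator, changed by -0.32 ± 0.09 (adjusted p = 0.04), and its adjusted p was 0.054 to 0.16 when any of 4 single arrays was left out. With only the arrays of the groups compared, ROR1, BMP4, FZD1 and BCL9 were not called (adjusted p = 0.052, 0.056, 0.075 and 0.18).

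After 48 h, 12 rose and 10 fell, or 21.4% beside 21.6% of all genes. CCND1, which encodes cyclin D1, rose by 0.66 ± 0.11 (limma adjusted p = 4.4e-04), TLE4 by 0.56 ± 0.10 (adjusted p = 4.5e-04) and BAMBI, a decoy receptor of the TGF-beta family, by 0.52 ± 0.05 (adjusted p = 4.2e-06). FZD1 changed by -0.40 ± 0.07 (adjusted p = 3.8e-04), BCL9 by -0.39 ± 0.09 (adjusted p = 0.007) and FZD2 by -0.36 ± 0.07 (adjusted p = 0.0013). The mean over its probe sets gave 0.32 for TLE4 (adjusted p = 7.4e-04). Of 29 intracellular components 4 rose and 7 fell, or 37.9%, while of 14 other antagonists 0 were called, both beside 21.6% of all genes. The 24 h, 48 h and line comparisons share the untreated CAL51 arrays.

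From 24 h to 48 h 7 pathway list genes rose and 1 fell, or 7.77% beside 9.71% of all genes. BAMBI rose by 0.39 ± 0.05 (limma adjusted p = 4.2e-04) and WLS by 0.32 ± 0.06 (adjusted p = 0.0044). CCND1 rose by 0.45 ± 0.11 (adjusted p = 0.019), with an adjusted p of 0.057 and 0.072 without the first or the third 48 h replicate, and a rise of 0.28 without the second 24 h replicate. AXIN1, a scaffold of the beta-catenin destruction complex, changed by -0.20 ± 0.06 (adjusted p = 0.04), a call lost when any of 5 single arrays was left out. With only the arrays of the groups compared, CCND1, WLS and AXIN1 were not called (adjusted p = 0.16, 0.064 and 0.18). SOSTDC1 rose by 0.27 ± 0.07 (adjusted p = 0.019), a step in which SOST signal was higher by 0.93. The SOSTDC1 group means were 11.90 untreated, 11.74 at 24 h and 12.01 at 48 h. At 48 h against untreated cells SOSTDC1 was not called, while SOST signal was higher by 1.09.

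In CALDOX after 24 h at the higher dose, 7 pathway list genes rose and 6 fell, or 12.6% beside 10.3% of all genes. WNT7A read 8.83, 8.67 and 8.85 in treated against 7.97 to 8.09 in untreated CALDOX, and rose by 0.76 ± 0.09 (limma adjusted p = 6.5e-05). BMP4 rose by 0.52 ± 0.05 (adjusted p = 7.5e-06) and CCND1 by 0.50 ± 0.11 (adjusted p = 0.0084). FZD2 changed by -0.52 ± 0.07 (adjusted p = 1.7e-04), FZD4 by -0.31 ± 0.05 (adjusted p = 9.5e-04) and FZD7 by -0.36 ± 0.08 (adjusted p = 0.011). FZD2 gave -0.33 averaged over its probe sets (adjusted p = 0.0022). The FZD7 adjusted p was 0.058 without the second untreated CALDOX replicate.

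The 24 h responses of the lines, at doses that differ, were compared directly. Of 103 pathway list genes 2 differed, or 1.94% beside 1.43% of all genes. WNT7A changed by 0.12 in CAL51 and 0.76 in CALDOX, a difference of 0.64 ± 0.13 (limma adjusted p = 0.023). BAMBI changed by 0.13 and -0.24, a difference of -0.37 ± 0.08 (adjusted p = 0.026). Both missed the threshold on leaving out most of the single arrays, with adjusted p up to 0.073 for WNT7A and 0.086 for BAMBI.

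**Figure D5:**
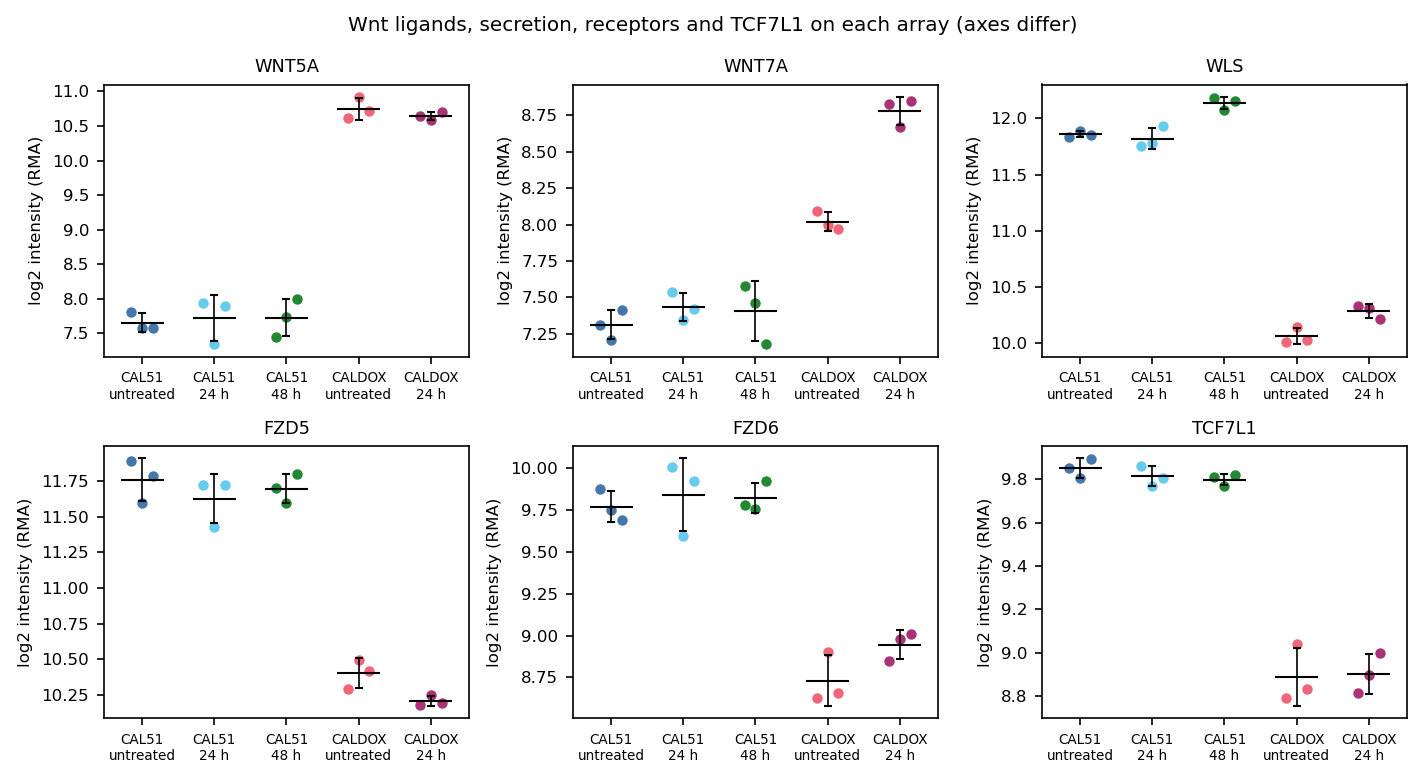
Log2 intensity (RMA, vertical axis, differing between panels) of WNT5A, WNT7A, WLS, FZD5, FZD6 and TCF7L1 on each array, by group (horizontal axis). Points are arrays, horizontal lines means and bars SD (n = 3). WNT5A and WNT7A are higher in CALDOX, WNT7A highest after treatment, and WLS, FZD5, FZD6 and TCF7L1 are lower in every CALDOX array than in every CAL51 array.

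SOST belongs by sequence to the DAN family, whose other members bind bone morphogenetic proteins. Of 11 tested genes of that family and other such antagonists, 0 were higher and 1, FSTL1, was lower in CALDOX. Over all genes 25.9% were called in either direction. SOSTDC1, the closest relative of SOST, and CER1 were counted above among the Wnt antagonists and are not among the 11. SOSTDC1 was called lower in CALDOX, at -0.95 ± 0.07, and CER1 was not called. FSTL1, a secreted glycoprotein, read 11.63, 11.58 and 11.63 in untreated CAL51 and 10.04, 10.11 and 9.99 in untreated CALDOX, a difference of -1.56 ± 0.06 (limma adjusted p = 9.2e-12). It rose in CAL51 by 0.44 ± 0.06 at 24 h (adjusted p = 1.5e-04) and 1.13 ± 0.06 at 48 h (adjusted p = 2.7e-09). In treated CALDOX it rose by 1.02 ± 0.06 (adjusted p = 6.8e-08). Its other probe sets differed less between the lines, at -0.23 and -0.29 (adjusted p = 0.075 and 0.077 over all probe sets). Averaged over the 3 probe sets, the difference between the lines was -0.69, the CAL51 rises 0.22 and 0.53 and the CALDOX rise 0.35, all still called. FSTL3 rose by 0.55 ± 0.08 at 48 h (adjusted p = 1.4e-04), and NOG, which encodes noggin, changed by -0.31 ± 0.09 at 24 h (adjusted p = 0.04). NOG was dim, with a mean under 6 in every group. Its CAL51 means were 5.05 untreated, 4.74 at 24 h and 4.86 at 48 h. FSTL1, FSTL3 and NOG were chosen after their values were seen.

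Markers of the cells known for SOST and FRZB were set beside these values. Of 11 bone and cartilage markers 10 were tested, and in CALDOX 1 was higher and 1 lower, beside 25.9% of all genes called. The same share applies to the other marker lists here. SPP1, or osteopontin, was higher by 0.36 (limma adjusted p = 0.0053) and COL2A1, a cartilage collagen, read 7.49 in untreated CAL51 and 6.49 in untreated CALDOX (adjusted p = 2.7e-05). The mean level of the list ranged from 6.75 to 7.02 over the arrays. Of 6 fibroblast markers 2 were lower, COL1A2 at -2.36 (adjusted p = 2.5e-14) and PDGFRB at -1.26 (adjusted p = 3.2e-08). None of 3 blood and 3 endothelial markers was called. Of 4 mesenchymal markers 1 was higher and 2 lower, and of 5 epithelial markers 2 were higher and 3 lower. ESR1, PGR and ERBB2, the receptors that a triple-negative line lacks in clinical assays, were not called between the lines, and without detection calls the array does not show whether they were absent. The part of these markers in the FRZB and SOST values was not tested. Arrays of a group correlated with r of 0.9929 to 0.9978, and arrays of different groups with 0.9789 to 0.9958.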

How the data were processed

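RNA from 15 cultures in 5 groups was hybridised to 1-colour Affymetrix arrays. The deposited values are RMA signals per the submitters' processing notes, in a version not given in the sources used here. Their range, 3.083 to 14.762, was read as log2 intensity, since no label states the log base of the deposited table. RMA subtracts background, quantile normalises the arrays and summarises probes. The number of arrays, 3 per group, limits the precision, and dim probe sets understate differences.

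Of 54675 probe sets, controls included, 41097 had 1 gene symbol, 1801 several and 11777 none. The 62 controls were left out, which left 41091 probe sets with 1 symbol. Each of 19775 genes was represented by its brightest single-symbol probe set. The 15 arrays entered 1 linear model of group means (limma 3.58.1 under R 4.3.3, functions lmFit and eBayes, two-sided, 10 residual and 5.397 prior degrees of freedom). Benjamini-Hochberg adjustment covered all genes of each of 6 contrasts, and genes were called at an adjusted p under 0.05. Intervals are 95% limma intervals. The fit was tested on simulated data.

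The members and lists were chosen with earlier results of these data known. Named were every member, up to 3 called pathway genes per direction and contrast with the largest changes and any changed 2-fold, the 5 genes most like and the 3 most opposite to FRZB and SOST, and their 4 nearest tested neighbours per side in the RefSeq gene table. Exceptions are stated. Alternatives were the arrays fitted, a replicate block, a filter on dim probe sets (mean under 6 in every group), repeated quantile normalisation, the mean over a gene's probe sets, adjustment over all probe sets, an intensity trend with robust priors, and leaving out each array.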

Additional observations from a re-analysis of the deposited data

Results flagged for a closer look

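The 24 h responses to doxorubicin differed between the lines, by a test of the difference itself, for 3 genes described above. WNT7A changed by 0.12 in CAL51 and 0.76 in CALDOX, a log2 difference of 0.64 ± 0.13 (limma adjusted p = 0.023). BAMBI changed by 0.13 in CAL51 and -0.24 in CALDOX, a log2 difference of -0.37 ± 0.08 (limma adjusted p = 0.026). FSTL1 changed by 0.44 in CAL51 and 1.02 in CALDOX, a log2 difference of 0.58 ± 0.08 (limma adjusted p = 0.0017). The mean over the 3 probe sets of FSTL1 gave 0.13 (adjusted p = 0.58). FSTL1 was put to this criterion after its values were seen. The drug dose was 0.4 µM for CAL51 and 4 µM for CALDOX, so line and dose cannot be told apart in these differences. None of the 6 tested members met the criterion for a closer look. FRZB and SOST, which were described without a test, were not put to it.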

How the results depend on the processing

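Of the alternatives to the tested members' results, 491 kept the side of the threshold and 7 passed it, all named above. For FRZB and SOST 163 values stayed within the spread and 5 moved, all of FRZB and given above. For pathway genes the alternatives covered those named for the largest changes in a contrast, and FSTL1 in every contrast. Between the lines they also covered SOSTDC1, TCF7L1, ITPRID2 and ETV4. Of these results 498 calls were kept and 40 lost. Other named calls were not put to the alternatives. Between the lines these included WNT9A, FZD2, IGFBP4, DKK4, BMP4, NKD2 and MYC. In CAL51 they included SOSTDC1 from 24 h to 48 h, FSTL3 at 48 h and NOG at 24 h. No called direction reversed, and the sign of differences that passed under neither setting was not compared. With only the arrays of the groups compared, genes called at 24 h fell to 870 from 1999 and Wnt list genes to 3 from 11, and from 24 h to 48 h to 565 from 1920 and to 1 from 8. In treated CALDOX the same setting gave more, 2456 genes from 2041 and 16 Wnt list genes from 13, and between the lines 4778 genes from 5125 and 30 Wnt list genes from 28. The mean over probe sets gave 17 Wnt list genes at 24 h, and 4 for the difference of responses, where 2 were called. That difference gave 1 Wnt list gene adjusted over all probe sets, and 426 genes with repeated quantile normalisation and 470 with an intensity trend and robust priors, from 283. Leaving out 1 array gave 6 to 12 Wnt list genes at 24 h, 1236 to 1929 genes and 5 to 8 Wnt list genes from 24 h to 48 h, 1341 to 1651 genes (from 2041) in treated CALDOX, and 161 to 353 genes and 0 to 3 Wnt list genes for the difference. The cause of these changes was not tested.

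Whether same-numbered arrays were paired could not be settled. Of 30 correlations between the deviations of same-numbered arrays, 8 were over 0.1 (range -0.46 to 0.46). Those of CAL51 at 24 h with 48 h were 0.06, 0.40 and 0.46. Those of untreated CAL51 with 24 h were 0.23, 0.37 and -0.13, and of untreated with treated CALDOX 0.16, 0.14 and 0.03. Differently numbered arrays were not compared, so these values have no reference. With the replicate number as a block, 1787, 4137, 1759, 5005, 1900 and 214 genes were called in CAL51 at 24 h, at 48 h, from 24 h to 48 h, between the lines, in treated CALDOX and for the difference. The Wnt list counts were then 8, 21, 7, 28, 12 and 2.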

Other observations

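Identical values recurred in the deposited table. Of 54613 probe sets that were not controls, 43.3% (23628) held the same log2 value on 2 or more arrays. Among the members, 5 arrays shared the value 6.47 on the SFRP1 probe set 202036_s_at, 5 shared 4.35 on the DKK3 probe set 221126_at, and 3 shared 7.32 on the AXIN2 probe set 224498_x_at. The brightest FRZB probe set and the SOST probe set held no repeated value.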
